A study of Mus musculus with 7 samples.

Results

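Growth factor receptor tyrosine kinases were described in nuclei of mouse small cell lung cancer (SCLC). The 10 members, Fgfr1, Fgfr2, Igf1r, Insr, Egfr, Erbb4, Kit, Met, Ret and Ntrk2, were taken by gene symbol from the count matrices of 4 animals, and all 10 were found among 56941 listed genes. Nuclei of fresh-frozen lung tumors, taken at the humane endpoint from 4 male mice, had been sequenced. RP1 and RP2 carried Rb1 fl/fl and Trp53 fl/fl (the genotype RP). RPC1 and RPC2 carried Rb1 fl/fl and Trp53 fl/fl together with Casp8-/- (the genotype RPC); by the study's text the Casp8 alleles are conditional too, so their loss is limited to cells that Cre reached. Both genotypes inhaled an adenovirus that expresses Cre from the CMV promoter, Ad5-CMV-Cre, at 8 to 12 weeks of age. The CMV promoter is not restricted to one cell type, so the conditional alleles could recombine in any infected lung cell, and Rb1 and Trp53 deletion was shared by all 4 animals. Each of 7 libraries pooled nuclei of all 4 mice, hence the 2 animals per genotype are the replicates. P-values of RPC against RP set a difference against the variation between animals of a genotype. Those of a class against tumor-like nuclei compare sums of the same animals, with the animal as a block. The test of a difference between classes in RPC against RP has the same block. In edgeR, the variation of a gene is estimated with information from all tested genes. Standard errors and p-values thus do not rest on the spread of the 4 animals in that gene alone.

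After filtering, 38254 of 38353 nuclei remained, with medians of 2223 to 3392 transcripts per nucleus and no barcode shared between animals. Clusters in which no marker list of another cell type scored above 0.5 (log2) were called tumor-like. They held 32007 nuclei (81.0 to 84.9% of each animal). The tumor-like class is thus what remained, and neuroendocrine markers were not used to name it. Marker genes assigned 4057 nuclei to 11 other named classes and left 2190 unnamed. The 8 classes with at least 20 nuclei in every animal were tested. They held 210 nuclei (T or NK cell-like) to 1069 nuclei (club-like), and 731 of the club-like nuclei were of RPC1. Neuroendocrine marker RNA was found in every one of these 8 classes, at medians of 35.3 to 94.6% of the tumor-like level, so levels outside tumor-like nuclei include such RNA to an extent that was not tested. Sets of 4 values stand in the order RP1, RP2, RPC1, RPC2. Levels (CPM) are counts per 1000000 of all transcripts summed over the nuclei of an animal and class. Casp8 was at 56.6 and 60.4 CPM in tumor-like nuclei of RP1 and RP2 and at 91.7 and 66.9 CPM in RPC1 and RPC2. Gene-level counts do not resolve the deleted exons, so this is no check of the genotype, and RP and RPC stand as labelled.

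Receptor tyrosine kinases span the plasma membrane, bind a growth factor outside the cell and, once paired, phosphorylate each other inside it. Docking proteins then pass the signal to the RAS and ERK cascade and to PI3-kinase. In the lung, FGFR2, EGFR and MET take part in growth and repair of the epithelium, INSR and IGF1R bind insulin and insulin-like growth factors, KIT binds stem cell factor, RET binds GDNF family ligands through GFRA co-receptors, and TrkB, the product of Ntrk2, binds BDNF. RET and KIT are known from neuroendocrine tumors, small cell lung cancer among them.

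The members differ in gene length, which sets how many nuclear transcripts can be captured along introns, so levels of different members are compared only per kilobase of gene body in GRCm39. Ret has the shortest gene body (46.1 kb, chr6:118128706-118174769, minus strand), Erbb4 spans 1076 kb (chr1:68071345-69147619, minus strand), Met spans 110.2 kb (chr6:17463749-17573979, plus strand) and Ntrk2 spans 328 kb (chr13:58954176-59281784, plus strand). All 10 are protein-coding genes. Fgfr2 is annotated with a gene body of 2962 kb (chr7:129763471-132725079, minus strand), which rests on 1 of its 48 transcripts. The median Fgfr2 transcript spans 97.9 kb, and the annotated body overlaps 30 other protein-coding genes, 14 on the same strand. The Fgfr2 count is therefore uncertain, and Igf1r overlaps 1 protein-coding gene, Pgpep1l. The other 8 members overlap none.

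RefSeq promoter windows (GRCm38.p6) were at hand for 7 of the 10 members, and the windows of Fgfr1, Insr and Ret are named only. The 250 bases before the annotated start are shown for Met, Erbb4 and Ntrk2, whose levels differed most between classes or animals, 5′ to 3′ with searched motifs in capitals.
Met, chr6:17463707-17463956, plus strand: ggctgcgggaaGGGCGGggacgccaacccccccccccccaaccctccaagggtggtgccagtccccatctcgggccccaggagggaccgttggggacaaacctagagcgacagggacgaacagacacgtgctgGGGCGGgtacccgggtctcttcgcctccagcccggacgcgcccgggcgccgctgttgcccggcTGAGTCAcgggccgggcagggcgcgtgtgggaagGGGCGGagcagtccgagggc
Erbb4, chr1:69108060-69108309, minus strand: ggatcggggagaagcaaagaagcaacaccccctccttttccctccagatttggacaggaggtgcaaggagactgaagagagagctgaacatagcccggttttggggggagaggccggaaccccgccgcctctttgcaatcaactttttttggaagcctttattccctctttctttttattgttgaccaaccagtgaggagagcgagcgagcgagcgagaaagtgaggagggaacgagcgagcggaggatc
Ntrk2, chr13:58806319-58806568, plus strand: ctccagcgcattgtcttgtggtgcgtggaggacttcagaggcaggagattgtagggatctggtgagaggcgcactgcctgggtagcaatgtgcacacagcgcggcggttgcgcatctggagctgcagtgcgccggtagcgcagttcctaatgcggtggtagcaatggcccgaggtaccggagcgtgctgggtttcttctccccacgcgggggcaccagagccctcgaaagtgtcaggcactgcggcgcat
Capitals mark the GC box (GGGCGG) and the AP-1 motif (TGACTCA), both searched on both strands. The Met window held both capitalized motifs, and its GC content was 74%. Neither was found in the Erbb4 or Ntrk2 window. The AP-1 motif was in 4.46% of 32851 mouse promoter windows and in 1 of 7 members, Met. The GC box was in 32.7% of all windows and in 4 of 7 members (Kit, Met, Igf1r and Egfr). These are matches of letters only and say nothing of binding.

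Per kilobase, Ret was the highest member in tumor-like nuclei (mean 4.08 CPM per kb), followed by Egfr (2.12), Igf1r (1.02), Insr (0.849) and Kit (0.705). Fgfr2 (0.273), Fgfr1 (0.137), Ntrk2 (0.0970), Met (0.0249) and Erbb4 (0.0187) followed. The ranges of the 4 animals overlapped between the neighbors Igf1r and Insr, Fgfr1 and Ntrk2, and Met and Erbb4. The first 5 places were held by the receptors of GDNF ligands, of EGF-like ligands, of insulin-like growth factors and of stem cell factor. Fgfr2 has the highest CPM of all but its place per kilobase depends on the long gene model.

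To ask whether loss of Casp8 goes along with a different receptor level in the tumor, edgeR was used to compare RPC with RP on the sums of each animal's tumor-like nuclei. No member was called: 0 of 10 passed an adjusted p of 0.05, against 0% of all 20036 genes tested, and DESeq2 called 1 of 10, Ntrk2, against 3.26% of 18118 genes. In the edgeR fit, 3051 genes (15.2%) had an unadjusted p under 0.05, among them 2 members (Igf1r and Ntrk2). The animals of RP and RPC did not overlap in CPM for 7 of 10 members, while this held for 50.7% of all tested genes. After TMM scaling it held for 6 members and 50.5% of the genes. Log2 fold changes of the members had a median of -0.26, compared with -0.01 over all genes.

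Igf1r was at 356 CPM in RP1 and 317 CPM in RP2, and at 278 CPM in RPC1 and 199.8 CPM in RPC2. Both RPC animals were thus below both RP animals, with a log2 fold change of -0.56 ± 0.20 (SE, edgeR adjusted p = 0.314), or -0.34 without RPC2. Insr, the related receptor of insulin itself, was at 129 and 128 CPM in RP and at 146 and 131 CPM in RPC (log2 fold change 0.05 ± 0.13, edgeR adjusted p = 0.874). The 4 animals thus spanned 128 to 146 CPM in Insr. Irs2, a docking protein of both receptors, was at 52.0, 64.7, 81.3 and 99.9 CPM. The log2 fold change of Irs2 was 0.58 ± 0.19 (edgeR adjusted p = 0.296), so it was not called although both RPC animals were above both RP animals.

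Ret was at 218 and 185 CPM in RP1 and RP2 and at 165 and 184 CPM in RPC1 and RPC2. RP2 and RPC2 were almost level, and the log2 fold change was -0.26 ± 0.16 (edgeR adjusted p = 0.467). Kit was at 65.8 and 57.5 CPM in RP and at 59.7 and 47.8 CPM in RPC (log2 fold change -0.26 ± 0.18, edgeR adjusted p = 0.506). The animals of both genotypes overlapped in Kit. Fgfr2 lay between 734 and 866 CPM in all 4 animals, with a log2 fold change of 0.06 ± 0.15.

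Egfr was at 225 CPM in RP1, 443 CPM in RP2, 317 CPM in RPC1 and 424 CPM in RPC2. The lowest and the highest animal were both RP, and the log2 fold change was 0.10 ± 0.35 (edgeR adjusted p = 0.909), turning to -0.30 without RP1. Met was low in every animal (2.97, 3.40, 2.15 and 2.45 CPM), based on 81 to 113 counts per animal. Its log2 fold change was -0.53 ± 0.30 (edgeR adjusted p = 0.442). Fgfr1 was at 11.0, 10.5 and 10.2 CPM in RP1, RP2 and RPC2 but at 2.85 CPM in RPC1. One animal thus stood apart in Fgfr1 (log2 fold change -0.77 ± 0.61, edgeR adjusted p = 0.563). The log2 fold change was -0.11 without RPC1 and -1.97 without RPC2.

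Ntrk2 was at 71.5 CPM in RP1, 24.5 CPM in RP2, 12.9 CPM in RPC1 and 18.3 CPM in RPC2. Both RP animals were above both RPC animals, and RP1 was far above RP2. The log2 fold change was -1.69 ± 0.55 (edgeR adjusted p = 0.296, DESeq2 adjusted p = 0.0475). Without RP1 the edgeR log2 fold change was -0.69, so a single animal set most of this difference.

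Erbb4, a receptor of neuregulins, was at 10.3 and 8.75 CPM in RP and at 53.7 and 7.86 CPM in RPC. Only RPC1 was high, and the log2 fold change was 1.62 ± 0.85 (edgeR adjusted p = 0.411). In RPC1, 2519 of 2822 Erbb4 counts were in cluster 13, a tumor-like cluster led by Grik2, Lrrtm4, Erbb4, Adarb2 and Nrxn3, which encode a glutamate receptor subunit and synaptic adhesion proteins among others. Its next leading genes were Gria4, Dlx6os1, Akap6, Rmst and Lrp1b. This cluster held 663 nuclei, 587 of them of RPC1. It is tumor-like in that no marker list of another cell type scored above 0.5, and what cells it holds was not tested. Erbb4 was at 419 CPM inside it and at 6.51 CPM outside it in RPC1. In RPC2 the cluster held 37 nuclei with 50 Erbb4 counts (586 CPM), against 6.76 CPM outside. The RP animals were at 10.2 and 8.69 CPM outside the cluster, and without cluster 13 the log2 fold change was -0.56. Without RPC1 it was -0.31. Fgfr1 was also higher inside than outside this cluster in RPC1 (14.0 against 1.42 CPM).

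**Figure D1:**
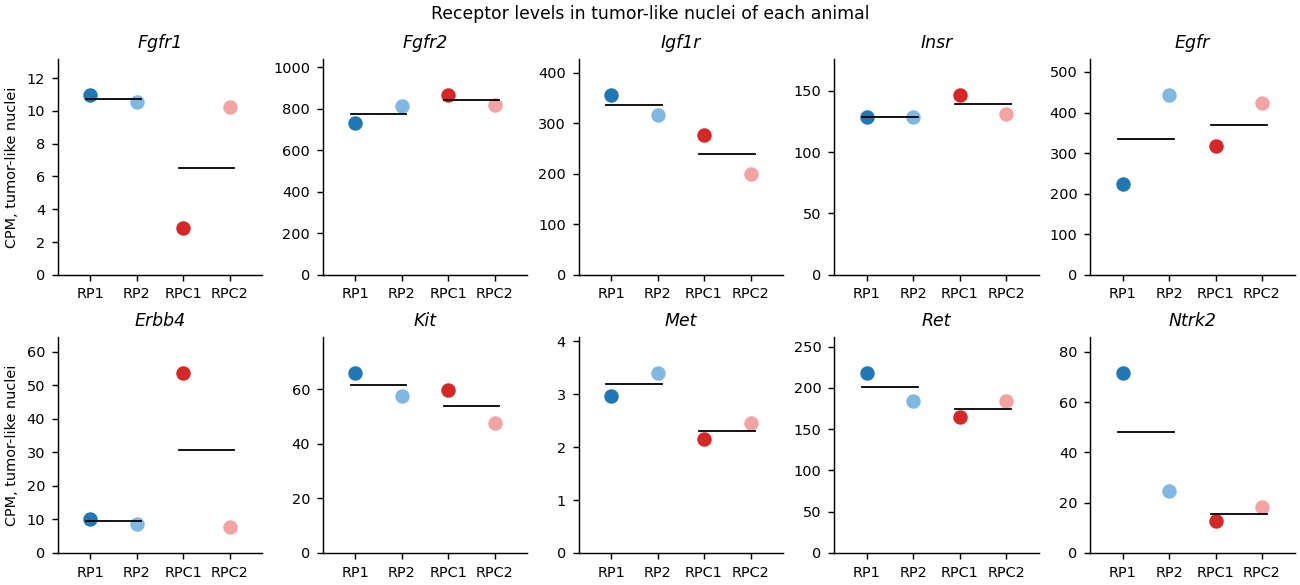
CPM of each member (y axes, from 0) in tumor-like nuclei of the 4 animals (x axes). Points are animals, blue for RP and red for RPC, and lines are the means of each genotype. Erbb4 was high in RPC1 (53.7 CPM), Ntrk2 in RP1 (71.5 CPM), and Fgfr1 was low in RPC1 (2.85 CPM).

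The share of nuclei with at least 1 transcript was compared after thinning each nucleus to 1000 transcripts, since depth differed between animals. Fgfr2 was found in 50.9 to 57.0% of tumor-like nuclei, Egfr in 18.7 to 31.5%, Igf1r in 16.9 to 28.6%, Ret in 15.6 to 19.4% and Insr in 11.5 to 13.6%. Kit was found in 4.12 to 6.03% and Met in 0.222 to 0.418%. Igf1r was in 27.0% of RP and 20.4% of RPC nuclei on average, without overlap of the animals (exact two-sided permutation p = 0.333). That p is the smallest which 2 against 2 animals allow. The Igf1r difference was -3.17 percentage points without RPC2 and -10.2 without RPC1. Ntrk2 was in 4.17% of RP and 1.48% of RPC nuclei (exact permutation p = 0.333), a difference of -1.07 percentage points without RP1. Erbb4 was in 0.795 to 2.86% of tumor-like nuclei, in 0.713 to 0.986% outside cluster 13 and in up to 34.1% inside it. Shares before thinning were higher, for example 4.62 to 16.0% for Ntrk2.

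Within an animal, the level of several members differed between tumor-like clusters. The members had been left out of the genes used for clustering, and these values are given as a description. Egfr was highest in clusters 1 and 2 in every animal that had at least 100 nuclei there. In RP1, Egfr was at 435 CPM in cluster 1 and at 156 CPM in cluster 7, and in RPC1 it was at 645 CPM in cluster 2 and at 207 CPM in cluster 13. In RP2 it was at 616 CPM in cluster 2 and at 364 CPM in cluster 3, and in RPC2 at 547 CPM in cluster 1 and at 228 CPM in cluster 6. RP1, the animal with the lowest Egfr, had 821 of its 7104 tumor-like nuclei in cluster 1 and was also lowest within this cluster, where RP2 and RPC2 had 542 and 547 CPM. Clusters 1 and 2 were led by Luzp2, Thbs1 and Tmtc1 and by Gria1, Clec14a and Chl1, respectively. Ntrk2 ranged in RP1 from 41.2 CPM in cluster 6 to 117 CPM in cluster 4, and every RP1 cluster shown was above the RP2 maximum of 27.6 CPM. Its range was wider in RPC2, from 11.8 CPM in cluster 2 to 87.0 CPM in cluster 3, the latter from 27 counts in 115 nuclei. Ret reached 306 CPM in cluster 4 of RP1 and was lowest in RPC2, at 103 CPM in cluster 3. Igf1r, Insr and Fgfr2 varied less, by at most 1.52-, 1.52- and 1.22-fold between clusters of an animal. Nuclei of an animal from different wells of the first barcoding round differed by at most 1.69-fold (Met) in any member.

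**Figure D2:**
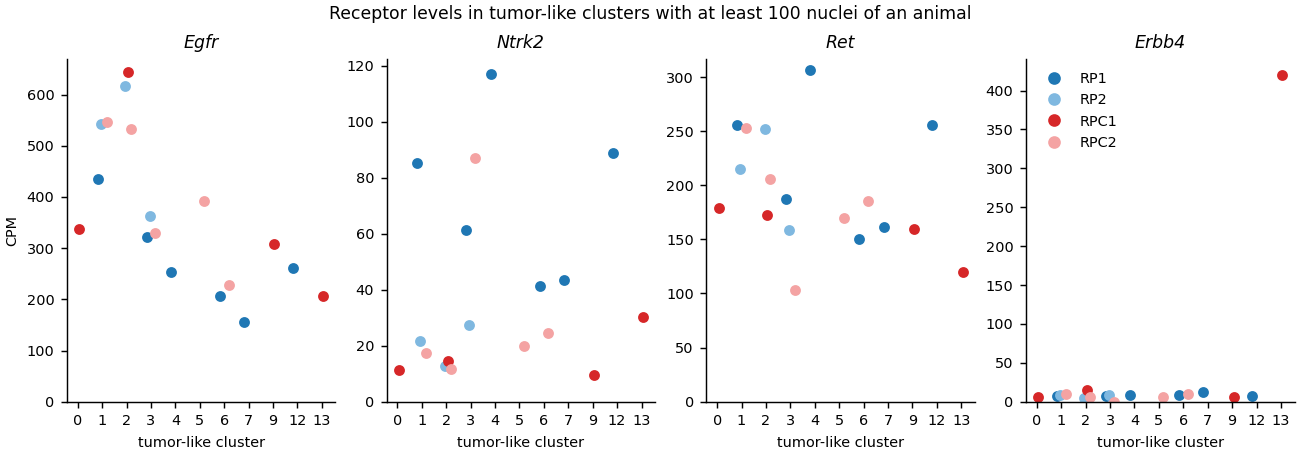
CPM of Egfr, Ntrk2, Ret and Erbb4 (y axes, from 0) in tumor-like clusters (x axes), for animals with at least 100 nuclei in a cluster. Points are animals, blue for RP and red for RPC. Egfr was highest in clusters 1 and 2 in every animal with at least 100 nuclei there, and Erbb4 stood out in cluster 13 of RPC1 (419 CPM).

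To place the members in the tissue, each class was compared with tumor-like nuclei of the same animals using edgeR with the animal as a block. Of the 10 members, 2 were called in alveolar type 2-like nuclei (12.2% of all genes tested were called), 6 in alveolar type 1-like (21.7%), 3 in club-like (12.1%), 7 in endothelial-like (15.7%), 3 in smooth muscle or pericyte-like (11.3%), 6 in macrophage or monocyte-like (30.0%), 2 in T or NK cell-like (11.2%) and 2 in B cell-like nuclei (12.3%). Of these 31 calls, 13 held under every alternative tried, and none changed sign. In bulk sums of a class, fewer nuclei with a transcript and fewer transcripts per nucleus cannot be told apart.

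Met, the receptor of hepatocyte growth factor, showed the widest range, with 51.4-fold between the highest and the lowest of the tested class means. It was at 158, 206, 157 and 43.6 CPM in alveolar type 2-like nuclei, against 2.15 to 3.40 CPM in tumor-like nuclei. All 4 animals were higher, with a log2 fold change of 5.37 ± 0.28 (edgeR adjusted p = 5.9e-27). So small a p draws on variation shared over genes, and is no measure of the spread between the 4 animals alone. In RPC2, the lowest of the 4, alveolar type 2 markers summed to 1093 CPM in this class, against 4759 to 9041 CPM in the other animals, and neuroendocrine marker RNA was at 87.1% of the tumor-like level. Met was at 109, 68.6, 51.9 and 183 CPM in club-like nuclei (log2 fold change 4.97 ± 0.27, edgeR adjusted p = 3.16e-07) and at 114, 64.6, 36.6 and 15.2 CPM in alveolar type 1-like nuclei (3.99 ± 0.46, edgeR adjusted p = 8.39e-17). Ciliated-like nuclei had 44.2 ± 10.9 CPM (SD, n = 4) and mesothelial-like nuclei 96.3 ± 46.6 CPM (SD, n = 4), from too few nuclei to test.

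Met was also called higher outside the epithelium. Macrophage or monocyte-like nuclei had 21.0, 49.3, 49.2 and 17.5 CPM (log2 fold change 3.57 ± 0.27, edgeR adjusted p = 1.57e-07), again with every animal above its tumor-like nuclei. Alveolar type 2 markers summed to 169 to 228 CPM in these nuclei and to 142 to 173 CPM in tumor-like nuclei, and club markers to 13.4 to 129 CPM against 9.50 to 49.1 CPM. Endothelial-like nuclei had 12.3 ± 4.61 CPM (SD, n = 4; log2 fold change 2.05 ± 0.35, edgeR adjusted p = 0.000138). The part of epithelial RNA in these values was not tested. All 5 Met calls held under every alternative. Leaving out nuclei over 4 times the median depth, which may be multiplets, raised the Met log2 fold change to 5.92 in alveolar type 2-like and to 4.24 in macrophage or monocyte-like nuclei.

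Fgfr1 was highest in fibroblast-like and smooth muscle or pericyte-like nuclei. It was at 85.2, 145, 104 and 46.1 CPM in the smooth muscle or pericyte-like class, each above the 2.85 to 11.0 CPM of tumor-like nuclei (log2 fold change 3.48 ± 0.34, edgeR adjusted p = 1.29e-07). Fibroblast-like nuclei had the highest Fgfr1 of all classes, 193, 147, 248 and 205 CPM, and did not overlap with the next class. They are given as levels only, since 1 animal had 12 of these nuclei. Fgfr1 was also called higher in endothelial-like (45.0 ± 20.3 CPM, SD, n = 4; log2 fold change 2.35 ± 0.29, edgeR adjusted p = 2.27e-06) and club-like nuclei (32.0 ± 17.7 CPM, SD, n = 4; 1.75 ± 0.24, edgeR adjusted p = 0.000396). All 3 Fgfr1 calls held under every alternative. In T or NK cell-like, B cell-like and macrophage or monocyte-like nuclei, Fgfr1 means were 8.39 to 11.0 CPM and were not called.

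Insr was highest in endothelial-like nuclei, at 455, 303, 399 and 162 CPM. All 4 animals were above their 128 to 146 CPM in tumor-like nuclei (log2 fold change 1.15 ± 0.14, edgeR adjusted p = 1.96e-06), and the call held under every alternative. The level was uneven within the class. In sub-cluster 14.0, led by Flt1 (a VEGF receptor), Ldb2 and Adamts9, Insr was at 1236, 802, 1113 and 485 CPM, whereas in sub-cluster 14.2 it was at 134 to 183 CPM in the 3 animals with at least 10 nuclei. Median depth in these 3 animals was 11046 to 23574 transcripts per nucleus in sub-cluster 14.2, compared with 1410 to 6001 in sub-cluster 14.0 over all 4. Nuclei this deep may be multiplets, and their part in the lower Insr was not tested. Sub-cluster 14.5 was also high (1031, 932 and 575 CPM in RP1, RP2 and RPC2, with 12 to 19 nuclei each). RPC2, the animal with the lowest Insr in the class, had 53 of its 180 endothelial-like nuclei in sub-cluster 14.2 and 16 in sub-cluster 14.0, while RP1 had 1 and 26 of 94. Insr was weakly higher in macrophage or monocyte-like nuclei (log2 fold change 0.28 ± 0.08, edgeR adjusted p = 0.0123), a call lost without RP1, without RP2 and without the filter on low counts.

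Igf1r was highest in club-like nuclei, at 627, 423, 523 and 1054 CPM, and each animal was above its tumor-like nuclei (log2 fold change 1.06 ± 0.25, edgeR adjusted p = 0.0176). The call was lost without RP1. Within this class, a sub-cluster led by Pkhd1, Col23a1, Slc4a4 and Fmo2 and one led by Cbr2 and Muc5b reached 1297 and 1475 CPM in RPC1, against 379.7 CPM in one led by Pkhd1, Col23a1 and Col15a1. The last of these had a median of 25484 transcripts per nucleus, the other two had 2939 and 3172.5, and the value of 1475 CPM rests on 16 nuclei. Smooth muscle or pericyte-like nuclei were higher by 0.45 ± 0.13 on the log2 scale (edgeR adjusted p = 0.0238). T or NK cell-like and macrophage or monocyte-like nuclei were lower (log2 fold changes -0.42 ± 0.14 and -0.25 ± 0.08, edgeR adjusted p = 0.0219 and 0.0226). These 3 calls were each lost when 1 or another animal was left out.

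Ret was highest in tumor-like nuclei among all classes by mean, at 165 to 218 CPM. It was called lower in alveolar type 1-like (log2 fold change -1.19 ± 0.21, edgeR adjusted p = 3.35e-07), alveolar type 2-like (-0.67 ± 0.21, edgeR adjusted p = 0.0191), endothelial-like (-0.51 ± 0.12, edgeR adjusted p = 0.0037), smooth muscle or pericyte-like (-0.59 ± 0.15, edgeR adjusted p = 0.0112), macrophage or monocyte-like (-0.55 ± 0.08, edgeR adjusted p = 0.000163) and B cell-like nuclei (-0.50 ± 0.13, edgeR adjusted p = 0.00157). Alveolar type 1-like nuclei had 48.9, 91.8, 36.6 and 121 CPM, from 6, 27, 5 and 111 counts, and their neuroendocrine marker RNA was at 36.1, 50.2, 35.3 and 61.1% of the tumor-like level. The 2 animals with more neuroendocrine marker RNA in these nuclei were also those with more Ret, and the part of carried-over RNA was not tested. Without the deepest nuclei the Ret log2 fold change was -1.99 in alveolar type 1-like and -1.12 in macrophage or monocyte-like nuclei. The calls in these 2 classes and in endothelial-like nuclei held under every alternative, the other 3 did not.

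Egfr was at 481, 432, 440.0 and 452 CPM in alveolar type 1-like nuclei and was above tumor-like nuclei in 3 of 4 animals (log2 fold change 0.33 ± 0.18, edgeR adjusted p = 0.206). The spread of these 4 values (SD 21.6 CPM) was smaller than that of tumor-like nuclei (SD 101 CPM). Mesothelial-like nuclei had the highest mean, 617 ± 186 CPM (SD, n = 4), from 43 nuclei. Egfr was called lower in macrophage or monocyte-like (log2 fold change -0.70 ± 0.08, edgeR adjusted p = 1.86e-05), T or NK cell-like (-0.64 ± 0.13, edgeR adjusted p = 4.05e-05), endothelial-like (-0.46 ± 0.11, edgeR adjusted p = 0.00433) and B cell-like nuclei (-0.40 ± 0.12, edgeR adjusted p = 0.00793). Among these, the macrophage or monocyte-like call held under every alternative.

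Kit was highest in endothelial-like nuclei, at 102, 143, 64.8 and 61.6 CPM, each above the same animal's tumor-like nuclei (log2 fold change 0.59 ± 0.15, edgeR adjusted p = 0.00679). Both RP animals were above both RPC animals in this class. The share of all genes without such overlap was computed only in tumor-like nuclei, where it was 50.7%. Without RP2 the call was lost. Kit was lower in alveolar type 1-like nuclei, at 21.4 ± 10.7 CPM (SD, n = 4; log2 fold change -1.30 ± 0.30, edgeR adjusted p = 0.000185), from 2 to 26 counts per animal, a call lost without RP2. In macrophage or monocyte-like nuclei it was at 42.3 ± 4.78 CPM (SD, n = 4; -0.46 ± 0.13, edgeR adjusted p = 0.013), a call lost without RP1 and without RPC1.

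Fgfr2 had the flattest profile, with 1.48-fold between the highest (alveolar type 1-like, 1194 ± 67.8 CPM, SD, n = 4) and the lowest (tumor-like, 808 ± 54.9 CPM, SD, n = 4) of the tested class means. The alveolar type 1-like difference was called (log2 fold change 0.51 ± 0.17, edgeR adjusted p = 0.0183) but was lost without RP1, RP2 or RPC1 and without the filter on low counts. Counts of Fgfr2 also in immune-like classes (832 to 856 CPM on average) stand beside its long annotated gene body. Erbb4 was sparse outside cluster 13. It was called lower in alveolar type 1-like nuclei (log2 fold change -2.26 ± 0.64, edgeR adjusted p = 0.00321), a fitted value that rests on 0, 0, 1 and 3 counts. The call was lost without RPC1, with DESeq2 and without the deepest nuclei (-1.36).

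Ntrk2 was highest in endothelial-like nuclei, at 65.9, 32.8, 32.4 and 91.2 CPM (log2 fold change against tumor-like nuclei 1.09 ± 0.26, edgeR adjusted p = 0.00514), and 3 of 4 animals were above their tumor-like nuclei. The call was lost without RPC2. Ntrk2 was called lower in alveolar type 1-like nuclei (log2 fold change -1.16 ± 0.40, edgeR adjusted p = 0.0213), from 0, 9, 0 and 7 counts, and this call was lost without RP1, without RPC2 and with DESeq2. In macrophage or monocyte-like nuclei Ntrk2 was at 66.4 CPM in RP1 against 8.38 to 17.5 CPM in the other animals, and T or NK cell-like nuclei of RP1 had 85.0 CPM. RP1 was thus the highest animal in immune-like classes as in tumor-like nuclei. Neuroendocrine marker RNA was at 59.7 to 94.6% of the tumor-like level in these 2 classes over the 4 animals, and its part in the Ntrk2 level was not tested.

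**Figure D3:**
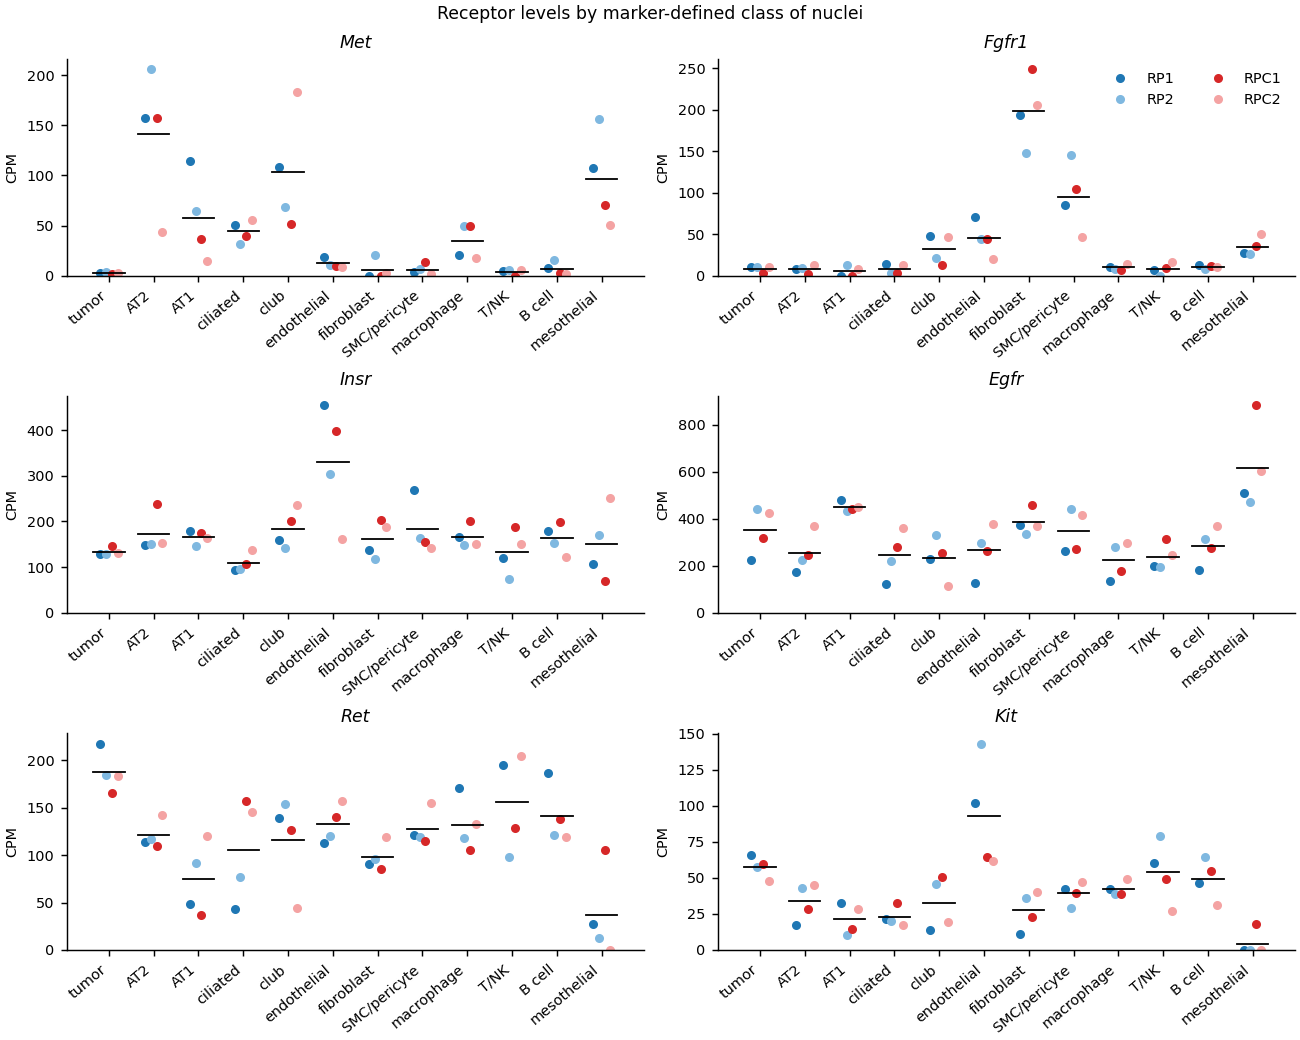
CPM (y axes, from 0) of Met, Fgfr1, Insr, Egfr, Ret and Kit in the marker-defined classes (x axes; each name stands for nuclei like that type). Points are animals and lines are means of 4. Met was near 0 in tumor-like nuclei and highest in alveolar type 2-like nuclei, Fgfr1 in fibroblast-like, Insr and Kit in endothelial-like, and Ret in tumor-like nuclei.

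**Figure D4:**
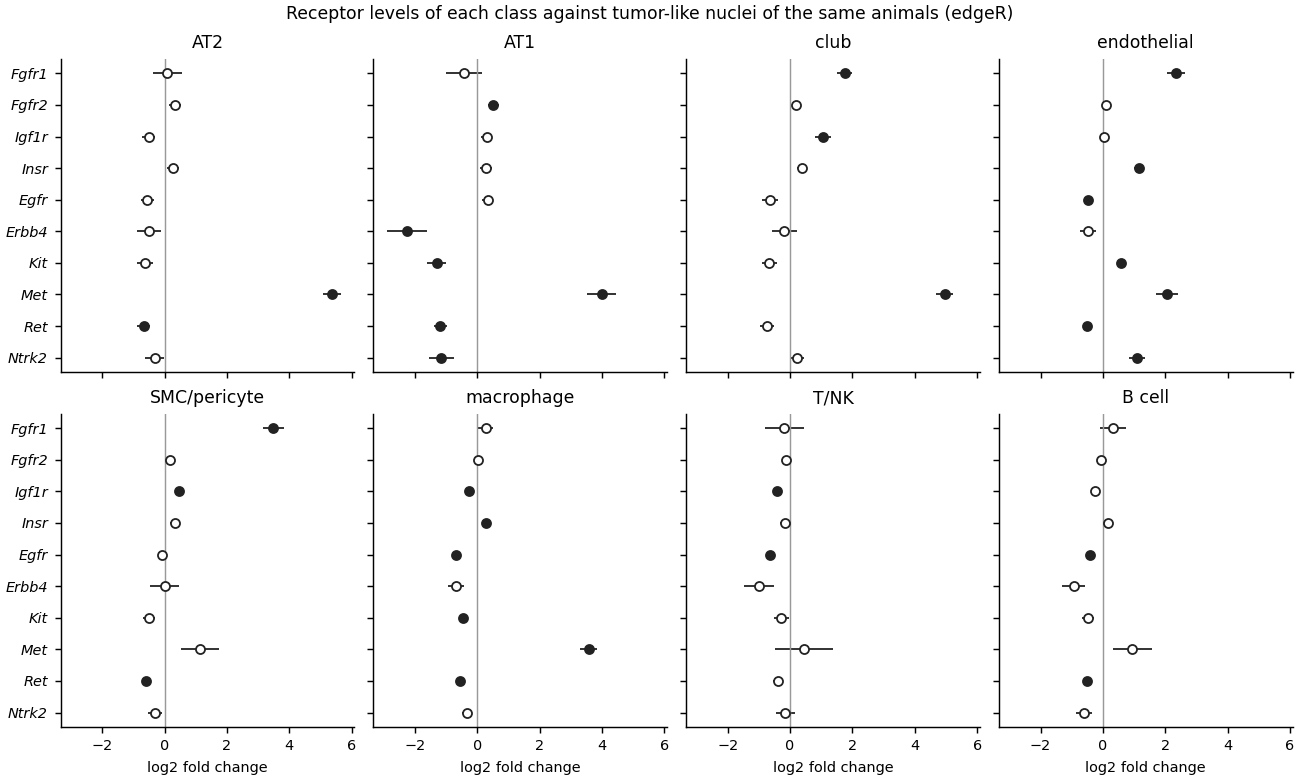
Log2 fold change of each member (rows) in 8 classes against tumor-like nuclei of the same animals. Bars are standard errors of the edgeR fit, which draw on variation shared over genes. Filled points have an edgeR adjusted p under 0.05. The 3 largest differences are of Met, in alveolar type 2-like (5.37), club-like (4.97) and alveolar type 1-like nuclei (3.99), and the largest of Fgfr1 is in smooth muscle or pericyte-like nuclei (3.48).

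The genotypes were then compared within the 8 other classes. 1 member was called, Ntrk2 in B cell-like nuclei (log2 fold change -4.00 ± 0.62, edgeR adjusted p = 0.0385), where 7 members and 7635 genes were tested and 0.223% of the genes were called. Ntrk2 was at 59.5 and 40.5 CPM in RP1 and RP2 and at 2.88 and 3.66 CPM in RPC1 and RPC2. These values rest on 45, 5, 1 and 2 counts, and the call was lost with DESeq2. Without RP1 the gene did not pass the filter on low counts. No member was called in the other classes. The share of all genes called there was 0% in alveolar type 2-like, club-like and T or NK cell-like nuclei. It was 0.0215% in alveolar type 1-like, 0.0397% in endothelial-like, 0.0711% in smooth muscle or pericyte-like and 0.00827% in macrophage or monocyte-like nuclei. Kit, for which the genotypes did not overlap in endothelial-like nuclei, had a log2 fold change of -1.06 ± 0.24 there (edgeR adjusted p = 0.255). Of the 10088 genes tested in that class, 1331 had an unadjusted p under 0.05. Erbb4 in club-like nuclei was at 6.78 and 5.08 CPM in RP and at 34.9 and 41.1 CPM in RPC (log2 fold change 2.68 ± 0.52, edgeR adjusted p = 0.459), from 2, 12, 416 and 15 counts. The animals' club-like nuclei lay in different sub-clusters. Sub-cluster 10.4 held 54.3% of them in RP1 and 56.1% in RP2, and sub-cluster 10.5 held 73.5% in RPC2, with all 15 counts. In RPC1, 368 of the counts were in sub-cluster 10.2, whose median was 25484 transcripts per nucleus.

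The difference between the genotype effects of 2 classes was tested directly. Between endothelial-like and tumor-like nuclei, 1 of 10 members differed, Ntrk2, where 0.378% of 18762 genes were called. Its RPC against RP log2 fold change was larger in endothelial-like than in tumor-like nuclei by 1.89 ± 0.29 (edgeR adjusted p = 2.17e-07). That standard error and p draw on variation shared over genes, and are no measure of the spread between the animals alone. RPC2 was the highest animal in endothelial-like nuclei (91.2 CPM) and below both RP animals in tumor-like nuclei (18.3 CPM). Without RPC2 the difference was 1.11 (edgeR adjusted p = 0.721). Among endothelial-like sub-clusters with at least 10 nuclei of an animal, Ntrk2 reached its highest level in sub-cluster 14.3 of RPC2, at 682 CPM from 32 counts. It was at 276 CPM in RPC1 and 115 CPM in RP2 there, from 10 and 2 counts. In RPC2 more of the Ntrk2 counts, 81, came from the deep sub-cluster 14.2, at 58.2 CPM. Sub-cluster 14.3 held 31, 17 and 15 nuclei of RPC2, RPC1 and RP2 and 3 of RP1. Between macrophage or monocyte-like and tumor-like nuclei, 0 of 10 members differed, where 0.00527% of 18985 genes were called. Ntrk2 differed there by 0.10 ± 0.30.

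**Figure D5:**
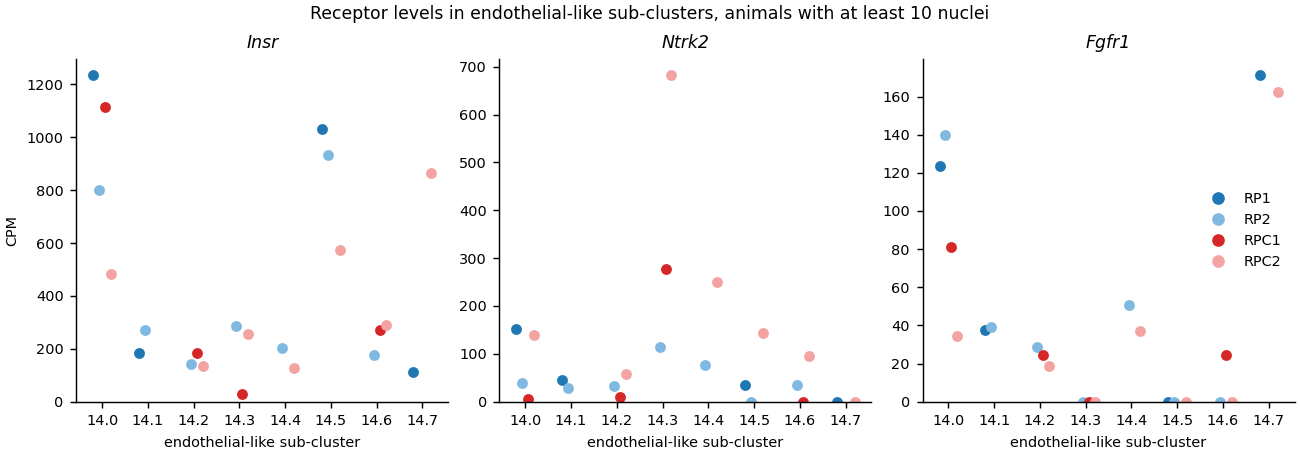
CPM (y axes, from 0) of Insr, Ntrk2 and Fgfr1 in endothelial-like sub-clusters (x axes), for animals with at least 10 nuclei in a sub-cluster. Points are animals, blue for RP and red for RPC. Insr was highest in sub-clusters 14.0 and 14.5, and Ntrk2 in sub-cluster 14.3, led by RPC2 (682 CPM).

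The genes around the receptors were followed in 11 lists of ligands, co-receptors, other receptors, docking proteins, inhibitors, the ERK cascade and early targets. Of 151 listed genes, 150 were in the files and 133 were tested for RPC against RP in tumor-like nuclei. None was called by edgeR, and 17 (12.8%) had an unadjusted p under 0.05, compared with 15.2% of all tested genes. Of the 133, 49 had a positive and 84 a negative log2 fold change, with a median of -0.17, while 9858 of all 20036 tested genes had a positive one. DESeq2 called 4, all lower in RPC, against 3.26% of all genes it tested. Etv5, an ETS factor downstream of FGF receptors, was at 4.14 and 9.05 CPM in RP and at 1.46 and 2.20 CPM in RPC (DESeq2 adjusted p = 0.0144). Ddr2, a collagen receptor tyrosine kinase, was at 22.1 and 13.8 CPM in RP and at 5.46 and 5.32 CPM in RPC (DESeq2 adjusted p = 0.000206). Sh2b1, an adaptor of insulin and Trk receptors, was at 40.3 and 30.5 CPM in RP and at 16.9 and 18.1 CPM in RPC (DESeq2 adjusted p = 0.0183). Igfbp2, which binds insulin-like growth factors, was at 10.7 and 5.50 CPM in RP and at 0.438 and 1.14 CPM in RPC (DESeq2 adjusted p = 2.78e-06). In all 4 genes both RP animals were above both RPC animals, while edgeR gave adjusted p = 0.269 to 0.280. The genotypes did not overlap in 42.1% of the 133 genes and in 50.7% of all tested genes.

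The list with the most negative median was that of ETS factors and early targets (-0.63 over 8 tested genes), and 14 of 18 tested docking proteins and 17 of 24 tested other receptor tyrosine kinases had a negative log2 fold change. Of the 14 genes of the RAS and ERK cascade, 10 had a positive one (median 0.04). These counts are a description of the lists, beside the 9858 of 20036 genes that were higher in RPC. The highest genes per kilobase of their lists in tumor-like nuclei included Igfbp5, which binds insulin-like growth factors (120, 183, 170 and 455 CPM), Insrr, the insulin receptor-related receptor (220.1 to 292 CPM), Mapk3, which encodes ERK1 (30.0 to 35.4 CPM), and Egr1, an early target (19.7 to 30.4 CPM). None of these 4 was called, and RPC2 stood apart in Igfbp5.

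Several ligands of the members were higher in other classes than in tumor-like nuclei. The ligand genes of this paragraph were chosen after their values were seen, and they are described without a test. Gdnf, a ligand of RET, was at 81.1 ± 85.1 CPM in alveolar type 2-like and at 30.1 ± 14.1 CPM in alveolar type 1-like nuclei, against 0.264 ± 0.107 CPM in tumor-like nuclei (SD, n = 4). Its alveolar type 2-like values were 201, 79.8, 31.4 and 11.8 CPM. Bdnf, the ligand of TrkB, was at 54.4 ± 17.9 CPM in alveolar type 1-like against 1.13 ± 0.617 CPM in tumor-like nuclei. Nrg1 (the first of 2 listed genes of this symbol), a neuregulin that binds ERBB3 and ERBB4, was at 390 ± 194 CPM and Fgf1 at 193 ± 67.9 CPM in alveolar type 1-like nuclei, against 102 ± 57.5 CPM and 9.02 ± 3.89 CPM in tumor-like nuclei. All 4 animals were above their tumor-like nuclei in each of these. The alveolar type 1-like sums held 122652 transcripts in RP1 and 136453 in RPC1. A level like that of Gdnf thus rests on few counts there.

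Igf1 was at 101 ± 61.1 CPM in macrophage or monocyte-like and at 68.5 ± 12.2 CPM in fibroblast-like nuclei, against 3.22 ± 0.439 CPM in tumor-like nuclei. Kitl, which encodes stem cell factor, was at 169 ± 70.3 CPM in club-like and at 96.3 ± 19.4 CPM in endothelial-like nuclei, against 27.1 ± 4.80 CPM in tumor-like nuclei. Fgf2, Fgf7 and Fgf10 were at 140 ± 21.8, 89.9 ± 30.4 and 47.4 ± 12.4 CPM in fibroblast-like nuclei. Fgf2 was at 11.2 to 17.8 CPM in tumor-like nuclei. The fibroblast-like sum of RP1 held 87875 transcripts of 12 nuclei, so its ligand levels rest on few counts. Hgf, the ligand of MET, was instead at 116 ± 18.2 CPM in tumor-like nuclei, where Met was at 2.15 to 3.40 CPM, and at 63.4 ± 27.4 CPM in alveolar type 2-like nuclei, where Met was highest.

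The genes most like each member were ranked by Pearson correlation over 36 sums of animals and classes, among 9935 genes, as a description. The sums of a class share cells of the same kind and carried-over RNA. Met was most like Mob3b (r = 0.912), Atp7b and Dram1, and Ret was most like Adgrl1 (r = 0.905), Lsamp and Cntnap4. Fgfr2 was followed by Errfi1 (r = 0.865), which encodes an inhibitor of EGFR, and Fgfr1 by Gulp1 (r = 0.843), Lamb1 and Slit3. Ntrk2 was followed by Cic (r = 0.789), Kit by Asap2 (r = 0.769) and Insr by Ephb4 (r = 0.758), an ephrin receptor, and Igfbp3. Erbb4 was most like Lpin1 (r = 0.754), Igf1r most like Trak1 (r = 0.748) and Egfr most like Pdzd2 (r = 0.698).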

How the data were processed

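Nuclei of 4 mice were profiled with a split-pool kit in 7 pooled libraries. The authors aligned reads to GRCm39 (Ensembl 110) and split them by animal with the Parse pipeline, and deposited raw transcript counts per nucleus and gene for each animal; the sequencing libraries cannot be told apart in these matrices. Depth was 32299909 to 72446861 transcripts per animal. Of 12 columns describing nuclei, 8 were not used.

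As in the study, a nucleus needed at least 300 counts, at most 10% mitochondrial transcripts and at most 12000 genes. Nuclei were clustered (2000 variable genes without the members, 20 principal components, Leiden resolution 0.4, leidenalg 0.10.2) and named from marker lists. No doublet caller was run, and nuclei over 4 times the median depth were left out as an alternative. Counts were summed per animal and class, filtered with filterByExpr, scaled by TMM and tested with edgeR 4.0.16 (quasi-likelihood, two-sided, Benjamini-Hochberg over all tested genes, threshold 0.05). DESeq2 1.42.0, which the study used on sums per animal, was an alternative. The RPC against RP fit in tumor-like nuclei and the endothelial-like class fit were run on simulated counts with the same variation for every gene. That setting is simpler than the real data, and the other fits were not simulated. Levels are CPM without TMM, and comparisons between genes are per kb of GENCODE gene body.

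Named genes are all 10 members, per list the tested gene highest per kb and any called, and the 3 genes most like each member, with further ligands chosen after their values were seen; a gene withheld from the text is not reported here. The members and lists were chosen with earlier results of these data known. Same-numbered animals did not deviate together (correlation -0.05), so the numbers pair nothing.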

Additional observations from a re-analysis of the deposited data

Results flagged for a closer look

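The RPC against RP log2 fold change of Ntrk2 was larger in endothelial-like than in tumor-like nuclei by 1.89 (SE 0.29, edgeR adjusted p = 2.17e-07), a tested difference between classes. Its SE and p draw on variation shared over genes, and not on the spread of the animals alone. The endothelial-like values were 65.9 and 32.8 CPM in RP and 32.4 and 91.2 CPM in RPC, and the tumor-like values were 71.5 and 24.5 CPM in RP and 12.9 and 18.3 CPM in RPC. Without RPC2 the difference was 1.11 (edgeR adjusted p = 0.721).

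Insr was lower in both RPC animals than in both RP animals in smooth muscle or pericyte-like nuclei (269.9 and 164 CPM in RP, 155 and 143 CPM in RPC), with a difference of means, RPC minus RP, of -68.4 CPM. In tumor-like nuclei both RPC animals were slightly higher (129 and 128 CPM in RP, 146 and 131 CPM in RPC). Insr was not called there. With each animal left out in turn, its tumor-like log2 fold change ran from -0.0096 to 0.13, so its sign is not settled. The difference between these classes was not tested. This case was picked from the members and classes for its opposite direction. In tumor-like nuclei, 50.7% of all genes had no overlap of the genotypes, and this share was not computed in the other class. In the smooth muscle or pericyte-like class, neuroendocrine marker RNA was at 58.2 and 69.2% of the tumor-like level in RP and at 79.8 and 92.4% in RPC, and the 8 markers of the class summed to 1772 and 1307 CPM in RP and to 700.5 and 400.4 CPM in RPC. A sub-cluster whose nuclei had a median of 9.06 times the median depth of their own animal held 0, 7, 14 and 40 of these nuclei in RP1, RP2, RPC1 and RPC2. The part of these differences in the Insr levels was not tested.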

How the results depend on the processing

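RPC against RP in tumor-like nuclei gave 0 called members and 0 called pathway genes under every alternative (no TMM, no filter, all kept nuclei, each animal left out, nuclei up to 4 times the median depth, and, chosen after seeing the data, resolution 0.8 and no cluster 13), except that DESeq2 called 1 member and 4 pathway genes. The replicate block also gave 0 and 0. Signs turned for Insr without RPC1, Egfr without RP1 or RPC2 (-0.13), and Erbb4 without RPC1 or cluster 13 (-0.56). With each animal left out in turn, their log2 fold changes ran from -0.0096 to 0.13 (Insr), from -0.30 to 0.65 (Egfr) and from -0.31 to 2.44 (Erbb4). Without turning, they ran from -1.97 to -0.11 (Fgfr1), -0.79 to -0.34 (Igf1r), -0.41 to -0.11 (Kit), -0.39 to -0.12 (Ret), -0.62 to -0.41 (Met), -2.27 to -0.69 (Ntrk2) and 0.0036 to 0.12 (Fgfr2). With each animal left out in turn, called members against tumor-like nuclei numbered 1 to 6 (alveolar type 2-like), 4 to 5 (alveolar type 1-like), 2 to 8 (club-like), 5 to 7 (endothelial-like), 1 to 5 (smooth muscle or pericyte-like), 3 to 6 (macrophage or monocyte-like), 1 to 3 (T or NK cell-like) and 1 to 6 (B cell-like). Over all genes, 1094 to 3075, 2138 to 2986, 1207 to 3213 and 1856 to 2605 were called in the first 4 classes. In the last 4, 1293 to 2459, 4245 to 4730, 1169 to 1552 and 1151 to 1883 were. Without nuclei over 4 times the median depth, an alternative chosen after seeing the data, called members numbered 6 (alveolar type 2-like), 8 (club-like), 5 (smooth muscle or pericyte-like) and 4 (B cell-like). Of all genes, 3713 of 14914, 4396 of 15471, 3401 of 14836 and 2574 of 14949 were called there, in the same order. No filter gave 6 in club-like nuclei, where 2932 of 36861 genes were called. DESeq2 gave 0 in T or NK cell-like (1209 of 20274 genes called) and in B cell-like nuclei (1222 of 20295 genes called). For RPC against RP within classes, leaving out an animal gave 0 to 1 called members in alveolar type 2-like, alveolar type 1-like, smooth muscle or pericyte-like, macrophage or monocyte-like, T or NK cell-like and B cell-like and 0 to 2 in club-like nuclei, and DESeq2 gave 0 in B cell-like nuclei. The difference between endothelial-like and tumor-like nuclei gave 0 to 2. Without thinning, shares (RPC minus RP, percentage points) moved to 6.08 (Fgfr2), 7.33 (Insr), 1.79 (Kit), 0.102 (Met), 3.17 (Ret) and -5.76 (Ntrk2). At resolution 0.8, all 120 class levels stayed within 1 SD. The endothelial-like, smooth muscle or pericyte-like, fibroblast-like, mesothelial-like, B cell-like, alveolar type 1-like and ciliated-like classes held the same nuclei at both resolutions. Levels of these classes could therefore not move, and only those of the remaining classes were put to a check. The causes were not tested. Fits without 1 animal assume that the lone animal of a genotype varies like the others. With 2 animals per genotype, the smallest edgeR adjusted p of all 20036 genes in tumor-like nuclei was 0.158. Large differences thus went uncalled too, for example Igfbp2 at a log2 fold change of -3.42 (edgeR adjusted p = 0.269). That 0 members were called therefore does not show that their levels were unchanged. In classes of 210 to 1069 nuclei, small differences of sparse members were also not detectable at this depth.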
